A study of Mus musculus with 18 samples.

Results

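The fibroblast growth factor (FGF) system was examined in sorted mouse pancreatic cells through 10 genes chosen by name: the ligand genes Fgf1, Fgf2, Fgf7, Fgf9, Fgf10 and Fgf18 and the receptor genes Fgfr1, Fgfr2, Fgfr3 and Fgfr4. All 10 were found among the 23951 genes of the deposited expression table, and 9 of them passed the filter on low values. Fgfr3 did not pass, because it reached 1 FPKM (fragments per transcript length, scaled to the fragments mapped in the library) in fewer than 3 libraries. Poly(A) RNA was sequenced from 18 libraries of cells sorted from fresh tissue. The groups were normal pancreatic fibroblasts (NPF, n = 3), fibroblasts associated with the cancer (CAF) from mice with intact Saa3 (WT_CAF, n = 5) or of Saa3 knockouts (KO_CAF, n = 3), and the tumor cells of both genotypes (WT_tumor, n = 4, and KO_tumor, n = 3). Saa3 encodes serum amyloid A3, a secreted acute-phase protein. All mice carried Elas-tTA/tetO-Cre, in which the elastase promoter of acinar cells controls the Cre recombinase, together with the reporter Rosa26+/EYFP. The NPF mice were K-Ras+/+. Mice of the other 4 groups carried the oncogenic allele K-Ras+/LSLG12Vgeo and Trp53lox/lox, and those of KO_CAF and KO_tumor were in addition Saa3-/-, an allele that the fibroblasts and the tumor cells share. NPF therefore differs from WT_CAF by the K-Ras and Trp53 alleles of the animal as well as by the tumor. The sources used here do not give the sort markers, the ages of the mice or any pairing of libraries by animal, and replicate numbers are names only.

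FGF ligands are mostly secreted proteins that bind tyrosine kinase receptors together with heparan sulfate, and the receptors signal mainly through the adaptor FRS2 to the MAP kinase pathway. Fgf7 and Fgf10 are classical mesenchymal ligands that act on the epithelial splice form of Fgfr2 (the IIIb form), and Fgf10 from mesenchyme is needed for the growth of the embryonic pancreas. Gene-level FPKM does not separate the splice forms of a receptor.

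The promoters of Fgf7, Fgf10 and Fgfr4 are shown because these genes had opposite patterns in fibroblasts and tumor cells, both ligand genes being high in fibroblasts and the receptor gene high in tumor cells. Each sequence is the stretch of 250 bases before the gene's start in RefSeq on GRCm38.p6, all on the + strand: chr2:126034408-126034657 for Fgf7, chr13:118714449-118714698 for Fgf10 and chr13:55152568-55152817 for Fgfr4. Capitals mark CG pairs, the bases at which DNA can be methylated.
Fgf7: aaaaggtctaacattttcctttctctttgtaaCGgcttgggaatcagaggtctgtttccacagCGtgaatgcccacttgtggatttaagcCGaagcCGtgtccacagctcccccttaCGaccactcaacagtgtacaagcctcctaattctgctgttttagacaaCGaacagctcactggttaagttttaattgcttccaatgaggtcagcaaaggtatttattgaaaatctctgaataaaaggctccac
Fgf10: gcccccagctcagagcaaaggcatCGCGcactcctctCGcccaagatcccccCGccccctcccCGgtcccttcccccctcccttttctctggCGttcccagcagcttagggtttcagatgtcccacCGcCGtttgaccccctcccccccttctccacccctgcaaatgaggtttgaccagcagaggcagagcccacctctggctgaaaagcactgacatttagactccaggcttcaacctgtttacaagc
Fgfr4: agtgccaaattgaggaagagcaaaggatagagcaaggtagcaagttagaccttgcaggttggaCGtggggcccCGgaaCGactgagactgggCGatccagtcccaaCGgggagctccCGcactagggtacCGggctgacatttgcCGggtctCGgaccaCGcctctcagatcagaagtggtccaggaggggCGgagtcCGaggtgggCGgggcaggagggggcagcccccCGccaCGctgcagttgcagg
The windows held 6 CG pairs for Fgf7, 8 for Fgf10 and 15 for Fgfr4, against a median of 6 (quartiles 2 and 16) over 32536 mouse promoters of the same length. Of the 10 genes, 8 had a promoter in the RefSeq table, with 9 windows in all. The letters CACCTG, the E-box bound by repressors of epithelial genes such as Zeb1 and Snai1, occurred on either strand in 17.3% of all promoters and in 0 of the 9 windows. The letters TATAAA on the gene's strand occurred in 7.55% of all promoters and in 0 of the 9. The letters CGCG, also counted, occurred in 34% of all promoters and in 4 of the 9.

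The libraries mostly carried the markers of their labels. Summed over 9 fibroblast markers, FPKM was 3032 to 18830 in 10 of the 11 fibroblast libraries and 17.8 to 526.3 in the 7 tumor libraries. Summed over 9 epithelial markers it was 4.13 to 318 in those 10 fibroblast libraries and 2804 to 6603 in the tumor libraries. The library labelled WT_CAF 1 went against its label, with sums of 640 for fibroblast and 627 for epithelial markers, so differences between NPF and WT_CAF are also given without it. WT_tumor 4 had 2.60 FPKM of the epithelial adhesion gene Epcam against 129 to 549 in the other 3 WT_tumor libraries. Saa3 stood at 0 to 1.85 FPKM in the 6 knockout libraries and at 2.75 to 4278 in the others. The description labels write the sequencing index in 3 forms, and these forms are spread unevenly: no index in the 3 NPF and in WT_CAF 1 and 2, a 6-base index in 8 libraries and a 16-base index in 5. The form entered the fit as a batch term, although the labels do not call it a batch. Libraries without an index are those whose label writes none. With this term, all WT_CAF against NPF differences rest on the 5 libraries without an index. Leaving out WT_CAF 1 there leaves WT_CAF 2 as the only WT_CAF library, and the reverse. All differences of tumor cells or KO_CAF from WT_CAF rest, on the WT_CAF side, on WT_CAF 3, 4 and 5. In sorted bulk samples, fewer cells that express a gene and less RNA per cell cannot be told apart.

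**Figure D1:**
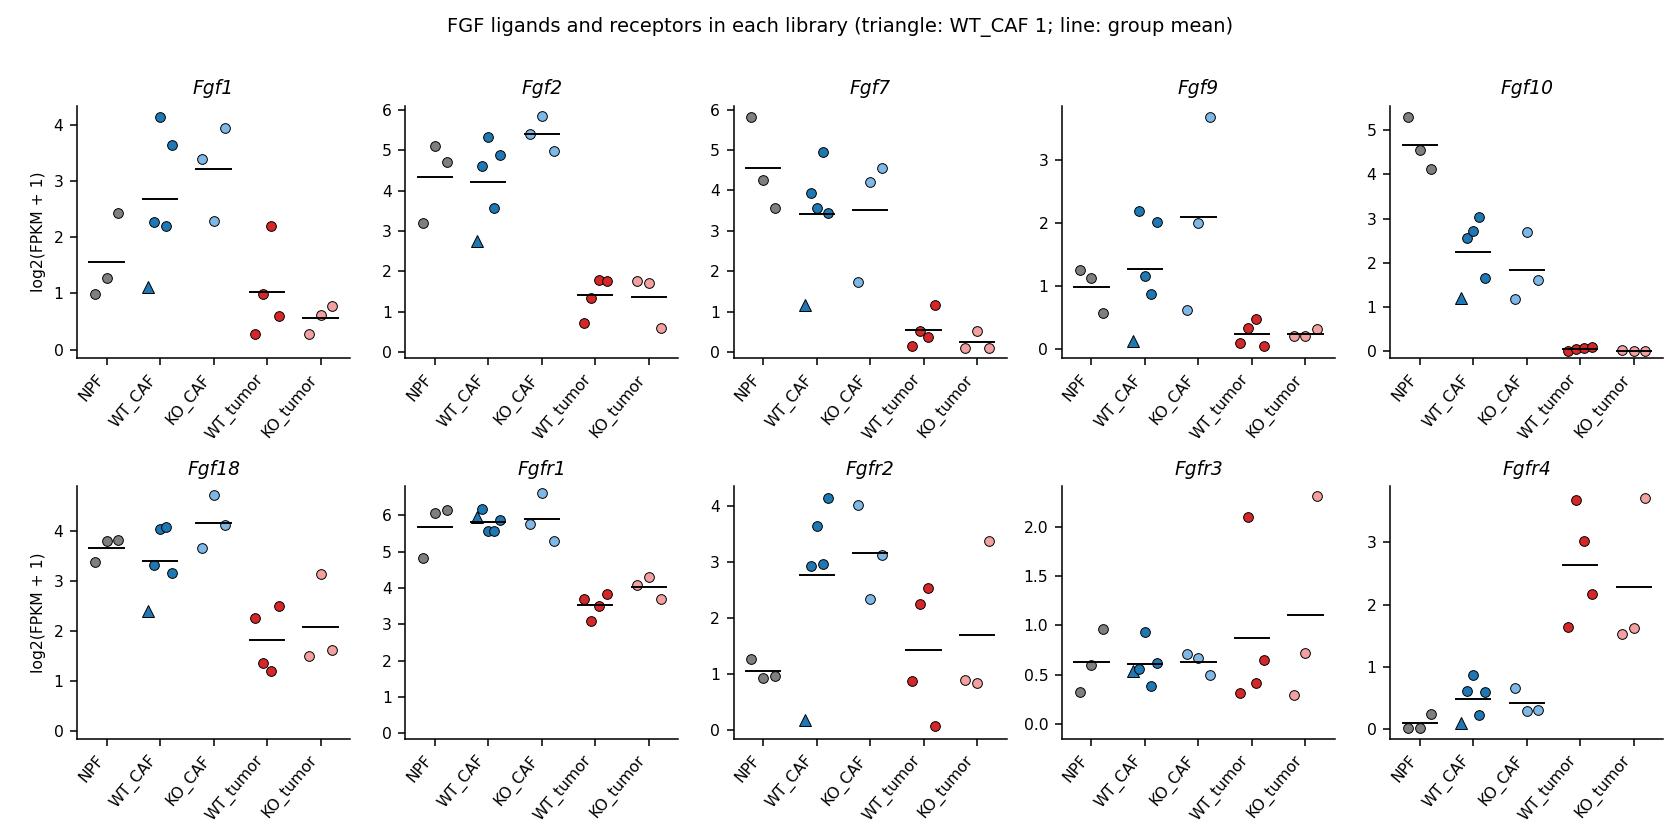
Level of each of the 10 genes, as log2(FPKM + 1), in every library of the 5 groups. Points are libraries, the triangle is the library labelled WT_CAF 1 and the line is the group mean. Fgf2, Fgf10 and Fgfr1 lie higher in every fibroblast library than in any tumor library, and Fgfr4 lies lower.

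Because FPKM is scaled by transcript length, levels could be ordered within each group. Fgfr1 had the highest mean in all 5 groups, 55.0 ± 23.7 FPKM (SD, n = 3) in NPF, 56.5 ± 10.5 (n = 5) in WT_CAF, 63.3 ± 30.7 (n = 3) in KO_CAF, 10.9 ± 2.54 (n = 4) in WT_tumor and 15.7 ± 3.49 (n = 3) in KO_tumor. In NPF it was followed by Fgf7, Fgf10 and Fgf2, whose ranges overlapped with one another and with Fgfr1. In WT_CAF and KO_CAF the second place went to Fgf2, and Fgf10 stood in the 7th and 8th place. In both tumor groups the second place went to Fgfr4, whose range overlapped with that of Fgfr1, followed by Fgf18. Most neighbours in these orders overlapped between libraries, so the ranks themselves are loose.

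Tumor cells held little RNA of the 6 ligand genes. The ligands summed to 58.9 to 113 FPKM in the fibroblast libraries other than the one labelled WT_CAF 1, which had 13.8, and to 3.61 to 11.2 FPKM in the tumor libraries. Of 9 tested genes, 7 fell and 1 rose from WT_CAF to WT_tumor, where 21.5% of all 13369 genes tested were called in either direction (12.5% lower, 9.05% higher). From KO_CAF to KO_tumor likewise 7 fell and 1 rose, against 28.4% of all genes (15.4% lower, 13% higher). The ranges of the groups did not overlap for 4 of the 9 genes in the WT comparison, against 12.7% of all genes, and for 8 of 9 in the KO comparison, against 42%. A gene was called at an adjusted p under 0.05 by limma (Benjamini-Hochberg over all genes tested), and every difference below is on the log2(FPKM + 1) scale, adjusted for the form of the index, ± standard error.

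Fgf10, the mesenchymal ligand of pancreatic and lung bud growth, was close to absent from tumor cells. It was listed at 0, 0.0349, 0.0571 and 0.0728 FPKM in WT_tumor 1 to 4 and at 0.0259, 0 and 0.00999 FPKM in KO_tumor 1 to 3. WT_CAF 1 to 5 had 1.30, 4.88, 5.62, 7.27 and 2.16 FPKM, and KO_CAF 1 to 3 had 1.27, 5.49 and 2.08. No fibroblast library overlapped with a tumor library. Fgf10 fell by 2.503 ± 0.44 from WT_CAF to WT_tumor (limma adjusted p = 0.0019) and fell by 1.82 ± 0.45 from KO_CAF to KO_tumor (adjusted p = 0.0093). Because the tumor values lie far under the pseudocount of 1 FPKM, these sizes depend on it: with a pseudocount of 0.1 they were -5.23 and -4.52. Without KO_CAF 2 the second difference was -1.39 with an adjusted p of 0.055.

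Fgf7, keratinocyte growth factor, acts on the same receptor form as Fgf10. It stood at 1.25, 14.4, 10.8, 30.0 and 9.79 FPKM in WT_CAF 1 to 5 and at 0.109, 0.425, 0.297 and 1.26 FPKM in WT_tumor 1 to 4. KO_CAF 1 to 3 had 2.33, 17.5 and 22.7 FPKM and KO_tumor 1 to 3 had 0.0738, 0.430 and 0.0657 FPKM. The WT groups overlapped only through the library labelled WT_CAF 1 and WT_tumor 4, and the KO groups did not overlap. Fgf7 fell by 3.22 ± 0.78 in the WT comparison (adjusted p = 0.010) and fell by 3.27 ± 0.79 in the KO comparison (adjusted p = 0.0083). The adjusted p was 0.059 without WT_CAF 3, 0.066 without WT_tumor 1 and, in the KO comparison, 0.052 without KO_CAF 3.

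Fgf2, basic FGF, had the lowest adjusted p of the members in both comparisons. WT_CAF 1 to 5 had 5.74, 23.3, 39.3, 10.9 and 28.6 FPKM, KO_CAF 1 to 3 had 41.3, 56.6 and 30.8 FPKM, and NPF 1 to 3 had 8.22, 33.5 and 25.4. The tumor libraries had 0.642, 1.53, 2.46 and 2.40 FPKM in WT_tumor 1 to 4 and 2.39, 2.27 and 0.503 FPKM in KO_tumor 1 to 3. The highest tumor library was thus under the lowest fibroblast library. Fgf2 fell by 3.42 ± 0.57 from WT_CAF to WT_tumor (adjusted p = 0.0014) and fell by 4.06 ± 0.58 from KO_CAF to KO_tumor (adjusted p = 4.6e-04).

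Fgf1, acidic FGF, binds all the FGF receptors. It ranged widely among fibroblasts, with 1.15, 3.84, 16.7, 3.56 and 11.5 FPKM in WT_CAF 1 to 5 and 9.46, 3.90 and 14.4 FPKM in KO_CAF 1 to 3. WT_tumor 1 to 4 had 0.211, 0.995, 3.57 and 0.522 FPKM and KO_tumor 1 to 3 had 0.209, 0.534 and 0.706 FPKM. WT_tumor 3 overlapped with WT_CAF 4 and with the library labelled WT_CAF 1, and it also had the highest fibroblast marker sum of the tumor libraries, 526.3 FPKM against 17.8 to 148 in the others. The part of that sum in the Fgf1 value was not tested. Fgf1 fell by 2.42 ± 0.60 in the WT comparison (adjusted p = 0.012) and fell by 2.65 ± 0.61 in the KO comparison (adjusted p = 0.0064). The first call was lost without WT_CAF 3 (-1.88, adjusted p = 0.13) and without WT_tumor 1 (-2.07, adjusted p = 0.070).

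Fgf18, a ligand of bone and lung development, was the ligand gene with the highest mean in both tumor groups. WT_CAF 1 to 5 had 4.29, 8.93, 15.3, 15.8 and 7.88 FPKM and WT_tumor 1 to 4 had 3.76, 1.57, 1.31 and 4.64 FPKM. KO_CAF 1 to 3 had 11.7, 25.2 and 16.3 FPKM and KO_tumor 1 to 3 had 1.82, 7.80 and 2.08 FPKM. Apart from the library labelled WT_CAF 1, every fibroblast library lay above every tumor library. Fgf18 fell by 1.75 ± 0.46 in the WT comparison (adjusted p = 0.015, and 0.16 without WT_CAF 3) and fell by 2.08 ± 0.46 in the KO comparison (adjusted p = 0.0055). It made up 16.2% to 78.5% of the summed ligand FPKM in tumor libraries and 8.24% to 31.1% in fibroblast libraries.

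Fgf9, a ligand known from mesothelium and epithelium, was low in most libraries. WT_CAF 1 to 5 had 0.0825, 3.53, 1.22, 0.825 and 3.02 FPKM and KO_CAF 1 to 3 had 0.533, 2.97 and 11.8 FPKM. The tumor libraries had 0.0307 to 0.391 FPKM. Fgf9 fell by 1.86 ± 0.60 from KO_CAF to KO_tumor (adjusted p = 0.033), and the WT difference was -0.86 ± 0.59 (adjusted p = 0.31), or -1.31 (adjusted p = 0.048) without the index term and WT_CAF 1. The KO call rests on KO_CAF 3, without which the difference was -1.07 (adjusted p = 0.21). The adjusted p was also above 0.05 without any 1 of KO_CAF 2 and KO_tumor 1, 2 and 3, between 0.054 and 0.13.

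**Figure D2:**
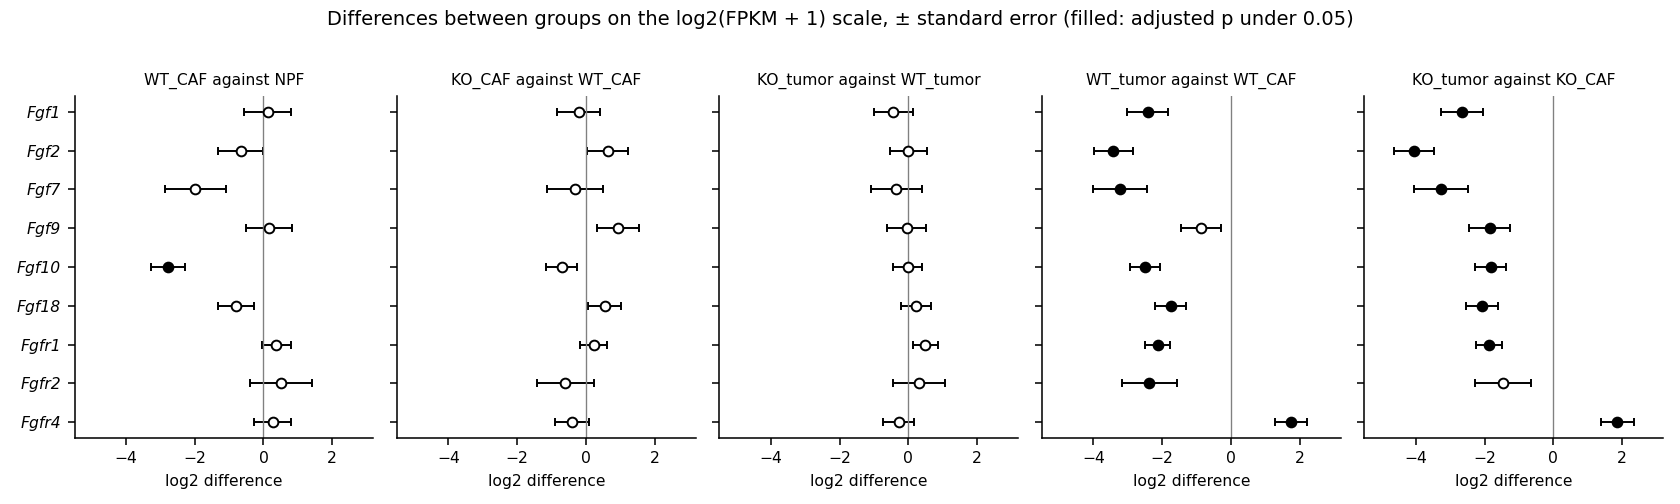
Log2 differences on the log2(FPKM + 1) scale for the 9 tested genes, with bars of 1 standard error and filled points where the adjusted p was under 0.05. The panels show WT_CAF against NPF, the knockout comparisons within fibroblasts and within tumor cells, and both comparisons of tumor cells with CAF. In both comparisons of tumor cells with cancer-associated fibroblasts, Fgfr4 lies above 0 and the ligand genes and Fgfr1 lie below it, while the knockout comparisons hold no filled point.

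The receptors split by cell type. Fgfr1, the main receptor of mesenchymal cells, was lower in tumor cells, and Fgfr4, a receptor of hepatic and other epithelial cells, was higher. Fgfr1 stood at 61.4, 70.9, 46.6, 46.2 and 57.4 FPKM in WT_CAF 1 to 5, at 53.6, 97.7 and 38.5 FPKM in KO_CAF 1 to 3 and at 27.7, 66.5 and 70.7 FPKM in NPF 1 to 3. It stood at 12.1, 7.51, 10.4 and 13.4 FPKM in WT_tumor 1 to 4 and at 16.04, 18.9 and 11.99 FPKM in KO_tumor 1 to 3. Fibroblast and tumor libraries did not overlap, and here the library labelled WT_CAF 1 lay with the fibroblasts. Fgfr1 fell by 2.13 ± 0.37 from WT_CAF to WT_tumor (adjusted p = 0.0018) and fell by 1.86 ± 0.38 from KO_CAF to KO_tumor (adjusted p = 0.0032).

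Fgfr4 was under 1 FPKM in every fibroblast library and above it in every tumor library. WT_tumor 1 to 4 had 2.11, 11.9, 7.10 and 3.52 FPKM and KO_tumor 1 to 3 had 1.89, 2.10 and 12.1 FPKM. The fibroblast libraries had 0.0136 to 0.831 FPKM, and the library labelled WT_CAF 1 had 0.0771. Fgfr4 rose by 1.75 ± 0.48 in the WT comparison (adjusted p = 0.019) and by 1.87 ± 0.48 in the KO comparison (adjusted p = 0.012). With a pseudocount of 0.1 these were 2.78 and 3.15. The adjusted p was 0.12 without WT_CAF 3 and, in the KO comparison, 0.056 without KO_CAF 2, and without KO_tumor 3 the KO difference was 1.24 (adjusted p = 0.0496). The summed FPKM of 10 acinar markers also varied among tumor libraries, from 9.33 in KO_tumor 1 and 14.8 in WT_tumor 4 to 15791 in WT_tumor 1 and 20924 in KO_tumor 3, and its part in the Fgfr4 level was not tested.

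Fgfr2, whose epithelial form is the receptor of Fgf7 and Fgf10, had lower means in tumor cells than in CAF but separated them less clearly than Fgfr1. It stood at 0.135, 6.61, 11.4, 6.79 and 16.6 FPKM in WT_CAF 1 to 5 and at 15.2, 4.09 and 7.70 FPKM in KO_CAF 1 to 3. Tumor libraries were heterogeneous, with 0.828, 3.74, 4.78 and 0.0606 FPKM in WT_tumor 1 to 4 and 0.866, 0.789 and 9.30 FPKM in KO_tumor 1 to 3. The WT groups overlapped only through the library labelled WT_CAF 1. Without that library 28.6% of all genes did not overlap either. The KO groups overlapped. Fgfr2 fell by 2.38 ± 0.80 from WT_CAF to WT_tumor with an adjusted p of 0.047, and the KO difference was -1.46 ± 0.81 (adjusted p = 0.19). The WT call is the least firm of the members: it was lost in 18 of 29 alternative analyses, among them the fit without the index term (-1.34, adjusted p = 0.22), the pseudocounts 0.1 and 0.5 (0.077 and 0.055) and the fits without WT_tumor 1 (0.14), WT_CAF 3 (0.12) or WT_CAF 5 (0.12).

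Fgfr3 was low throughout. It was under 1 FPKM in 16 libraries and reached 3.29 FPKM in WT_tumor 2 and 3.96 FPKM in KO_tumor 3, the same libraries that had the highest Fgfr4 of their groups. It was not tested.

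The level and make-up of the receptor mix are described here without a test. Summed over the 4 receptor genes, FPKM was 29.4 to 103 in fibroblast libraries and 15.3 to 37.4 in tumor libraries, and these ranges overlapped. Fgfr1 made up 94.3%, 97.9% and 97.1% of that sum in NPF 1 to 3 and 76.5% to 98.9% in the CAF libraries. In tumor cells its share was 79.2%, 28.4%, 46.1% and 76.4% in WT_tumor 1 to 4 and 84.4%, 84.3% and 32.1% in KO_tumor 1 to 3, and part of these lay inside the range of the CAF libraries. Fgfr4 supplied 9.35% to 45.0% of the sum in tumor libraries and at most 1.39% in fibroblast libraries, which did not overlap.

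**Figure D3:**
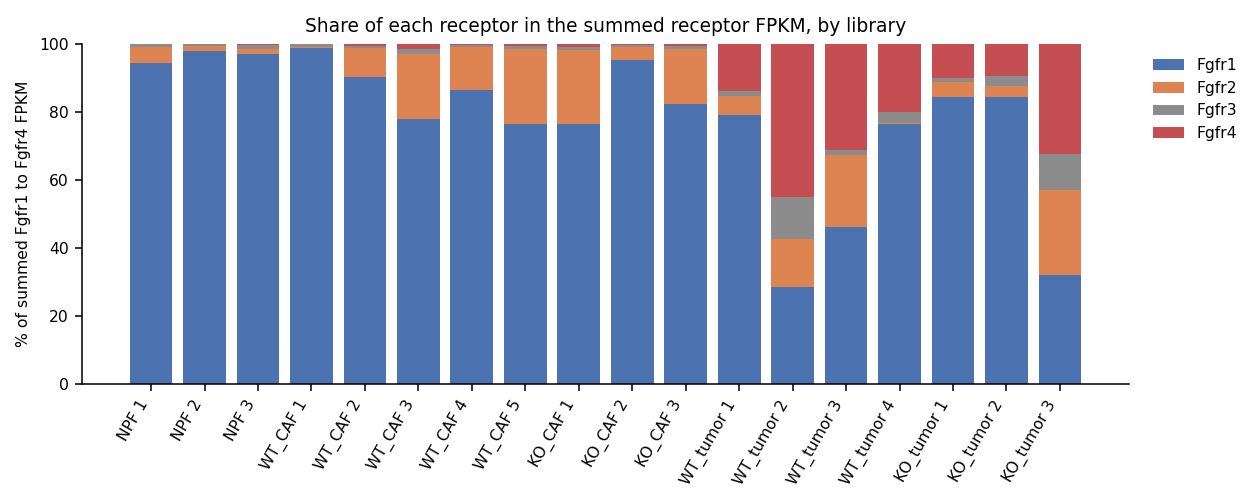
Share of Fgfr1, Fgfr2, Fgfr3 and Fgfr4 in their summed FPKM, in percent, for each of the 18 libraries. Fgfr1 fills most of every fibroblast bar, and Fgfr4 takes 9.35% to 45.0% of the tumor bars.

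Between normal and cancer-associated fibroblasts, Fgf10 was the only member called in the main fit of WT_CAF against NPF, and the call depended on the libraries used. NPF 1 to 3 had 38.1, 22.5 and 16.5 FPKM, a mean of 25.7 ± 11.1 (SD, n = 3), against 4.25 ± 2.47 (n = 5) in WT_CAF and 2.95 ± 2.24 (n = 3) in KO_CAF. Every NPF library was above every CAF library. Its share of the summed ligand FPKM was 23.3% to 33.6% in NPF, 3.44% to 10.6% in WT_CAF and 1.91% to 4.91% in KO_CAF. The difference from NPF to WT_CAF was -2.78 ± 0.50 (limma adjusted p = 0.018), and Fgf10 was 1 of 9 members called, where 0.95% of all genes were called (0.673% lower). The adjusted p was 0.085 without NPF 1 and 0.10 without NPF 2. From WT_CAF 2 alone, without the library labelled WT_CAF 1, the difference was -2.10 ± 0.58. Without the index term it was -2.42 ± 0.41 (adjusted p = 0.0039), and -2.16 ± 0.37 (adjusted p = 0.0025) if WT_CAF 1 was left out as well. The call was also lost with only the libraries without an index (adjusted p = 0.39) and with only the groups compared (adjusted p = 0.27).

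KO_CAF and NPF share no form of the index, so their comparison is linked only through WT_CAF. Of 9 members 0 were called there, where 0.135% of all genes were called. Of the members 1, Fgf10, had an unadjusted p under 0.05, as had 1237 of all 13369 genes. Fgf10 differed by -3.49 ± 0.68 (adjusted p = 0.079). This became -4.16 without WT_CAF 2, where the library labelled WT_CAF 1 was the only link. It was -2.82 ± 0.45 (adjusted p = 0.0039) without the index term. The summed acinar markers were also higher in NPF, with 1023 to 41201 FPKM, than in WT_CAF (25.7 to 654) and KO_CAF (13.2 to 170). Within NPF their order was opposite to that of Fgf10, with 1023, 5983 and 41201 FPKM in NPF 1 to 3. Of those 10 markers, 0 was at 0 in every library of a group. Their part in the Fgf10 difference was not tested.

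Fgf7, the other mesenchymal ligand of Fgfr2, stood at 55.3, 18.01 and 10.9 FPKM in NPF 1 to 3, which overlapped with WT_CAF. Its difference from NPF to WT_CAF was -1.99 ± 0.89 (adjusted p = 0.28). It was -0.60 ± 0.97 from WT_CAF 2 alone and -3.37 from the library labelled WT_CAF 1 alone, so its size rests on which was kept. Fgf7 and Fgf10 were the 2 of 9 members with an unadjusted p under 0.05 in this comparison, as had 2254 of all 13369 genes.

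Fgfr2 had 1.41, 0.910 and 0.947 FPKM in NPF 1 to 3, a mean of 1.09 ± 0.280 (SD, n = 3), against 10.4 ± 4.74 (n = 4) in WT_CAF 2 to 5 and 9.0 ± 5.67 (n = 3) in KO_CAF. These 7 CAF libraries all lay above the 3 NPF libraries, while the library labelled WT_CAF 1 had 0.135 FPKM and lay below them. Over all genes, 21.2% did not overlap between NPF and WT_CAF 2 to 5, and 27% between NPF and KO_CAF. The fitted difference from NPF to KO_CAF had no clear sign (-0.10 ± 1.23). The fitted difference from NPF to WT_CAF was 0.50 ± 0.90 (adjusted p = 0.83). It was 1.87 ± 1.005 from WT_CAF 2 alone and -0.87 from the library labelled WT_CAF 1 alone. Without the index term it was 1.71 ± 0.81 (adjusted p = 0.30). With WT_CAF 1 and the index term both left out it was 2.36 ± 0.66 with an adjusted p of 0.043. A set of 5 pericyte markers had the same order, summing to 3.30 to 12.9 FPKM in NPF, 1.55 in the library labelled WT_CAF 1, 48.3 to 90.0 in WT_CAF 2 to 5 and 65.3 to 96.1 in KO_CAF. So did the 9 fibroblast markers, with 3032 to 7621, 640, 9020 to 18830 and 8397 to 14956 FPKM. Within KO_CAF the pericyte sum was highest in KO_CAF 2, which had the lowest Fgfr2, 4.09 FPKM. The part of either marker set in the Fgfr2 difference was not tested.

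The remaining members showed no difference between NPF and WT_CAF that passed the test. Fgf1 had 0.974, 1.43 and 4.38 FPKM in NPF 1 to 3 and differed by 0.13 ± 0.68, with the sign turning without NPF 1 (-0.16), NPF 2 (-0.01) or WT_CAF 2 (-0.46). Without the library labelled WT_CAF 1 its value was 0.71 ± 0.85. Of the others, Fgf18 differed by -0.80 ± 0.52 (adjusted p = 0.45), Fgf2 by -0.67 ± 0.65 (0.64), Fgf9 by 0.17 ± 0.67 (0.94), Fgfr1 by 0.37 ± 0.42 (0.70) and Fgfr4 by 0.26 ± 0.54 (0.85). From WT_CAF 2 alone, without the library labelled WT_CAF 1, these were -0.35 ± 0.64 for Fgf18 and 0.26 ± 0.73 for Fgf2, whose sign turned. They were 1.20 ± 0.74 for Fgf9, 0.47 ± 0.55 for Fgfr1 and 0.52 ± 0.69 for Fgfr4. The sign also turned for Fgf9 without WT_CAF 2 (-0.87) or NPF 3 (-0.04) and with a pseudocount of 0.1 (-0.34), and for Fgfr1 without NPF 1 (-0.05). Fgf18 had 9.33, 12.9 and 13.1 FPKM and Fgf9 had 1.36, 1.18 and 0.484 FPKM in NPF 1 to 3, both inside the range of WT_CAF. For 1 of the 9 members, Fgf10, the ranges of NPF and WT_CAF did not overlap, as for 11.2% of all genes. Between NPF and KO_CAF this held for 3 members, Fgfr2 and Fgfr4, higher in KO_CAF, and Fgf10, lower, against 27% of all genes. The fitted differences of both receptors had no clear sign there. Fgfr2 differed by -0.10 ± 1.23 (adjusted p = 0.99), and by 2.11 ± 0.90 (adjusted p = 0.25) without the index term. Fgfr4 differed by -0.13 ± 0.73 (adjusted p = 0.97), and by 0.33 ± 0.52 (adjusted p = 0.85) without that term. Without the library labelled WT_CAF 1, through which this comparison is partly linked, the values were 1.27 ± 1.24 for Fgfr2, 0.13 for Fgfr4 and -2.81 ± 0.72 (adjusted p = 0.17) for Fgf10.

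Loss of Saa3 left no member called in either cell type. Saa3 itself was not called either, since 0 genes were called lower in fibroblasts and 0 in tumor cells. Yet Saa3 stood at 4278, 1182 and 2270 FPKM in WT_CAF 3 to 5 and at 1.85, 1.16 and 0.434 FPKM in KO_CAF 1 to 3. A missing call in these comparisons therefore says little about the members. In fibroblasts, 0 of 9 members were called between KO_CAF and WT_CAF, where 0.00748% of all genes were called, and 0 members had an unadjusted p under 0.05. On the WT_CAF side this comparison rests on WT_CAF 3, 4 and 5. The differences ran from -0.71 ± 0.46 for Fgf10 to 0.94 ± 0.62 for Fgf9. The Fgf9 value rests on KO_CAF 3, which had 11.8 FPKM, and was -0.04 without it. In tumor cells, 0 of 9 members were called between KO_tumor and WT_tumor, where 0% of all genes were called, and 0 had an unadjusted p under 0.05. The differences ran from -0.44 ± 0.57 for Fgf1 to 0.50 ± 0.36 for Fgfr1. The ranges of the groups overlapped for all 9 members in both comparisons, against 1.2% of all genes without overlap in fibroblasts and 3.61% in tumor cells. The test of whether the knockout difference itself differed between the cell types called 0 members and 0% of all genes, again with 0 members at an unadjusted p under 0.05, and ran from -0.99 ± 0.84 for Fgf9 to 0.92 ± 1.13 for Fgfr2. Without KO_CAF 3 the Fgf9 value was 0.03, and without the index term the Fgfr2 value was -0.12. The standard errors are wide beside these values, so the data do not show that the levels are alike. 

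Most of the ligand genes tested were members. Of 22 ligand genes listed, 10 were tested, 6 of them members. Among the 4 others, 1 fell and 0 rose from WT_CAF to WT_tumor, where 12.5% of all genes fell. From KO_CAF to KO_tumor, where 15.4% of all genes fell, 0 rose and 2 fell. The second of these was Fgf11, an intracellular FGF homologue named after its value was seen, which fell by 1.55 ± 0.46 (adjusted p = 0.024). That call was lost without the index term (0.093), with only the groups compared (0.071) and without KO_CAF 1, KO_tumor 1 or KO_tumor 3 (0.075 to 0.10). The ligand outside the 10 genes with the largest range was Fgf23, the bone-derived hormone of phosphate balance. It stood at 0.0924, 0.0787 and 0.354 FPKM in NPF 1 to 3, at 0.738, 22.5, 43.7, 17.8 and 0.824 FPKM in WT_CAF 1 to 5 and at 2.94, 18.4 and 5.40 FPKM in KO_CAF 1 to 3. In tumor cells it was listed at 0 in 5 libraries and at 0.0124 and 0.0144 FPKM in WT_tumor 2 and KO_tumor 2. Fgf23 fell by 3.86 ± 0.96 from WT_CAF to WT_tumor (adjusted p = 0.012, and 0.15 without WT_CAF 3). It fell by 2.97 ± 0.97 from KO_CAF to KO_tumor (adjusted p = 0.035), a call lost without either of KO_CAF 2 and 3 or any 1 of the KO_tumor libraries (0.059 to 0.14). With a pseudocount of 0.1 these differences were -6.83 and -6.02. All 8 CAF libraries lay above the 3 NPF libraries. Over all genes, 11.2% did not overlap between NPF and WT_CAF, and 27% between NPF and KO_CAF. The Fgf23 difference from NPF to WT_CAF was 2.45 ± 1.09 (adjusted p = 0.28). It was 4.33 ± 1.15 from WT_CAF 2 alone and 0.57 ± 1.15 from the library labelled WT_CAF 1 alone. Without the index term and WT_CAF 1 it was 3.56 ± 0.77 (adjusted p = 0.012).

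Receptor co-factors moved in both directions. Of 13 tested co-receptors and binding proteins, 2 rose and 4 fell from WT_CAF to WT_tumor (median -0.92) and 3 rose and 4 fell from KO_CAF to KO_tumor (median -0.15). Over all genes, 9.05% rose and 12.5% fell in the WT comparison, and 13% rose and 15.4% fell in the KO comparison. Gpc3, a heparan sulfate proteoglycan of the cell surface, stood at 1.44, 108, 65.0, 73.1 and 73.4 FPKM in WT_CAF 1 to 5 and at 0.328 to 5.07 FPKM in the tumor libraries. It fell by 4.81 ± 1.19 (adjusted p = 0.011, and 0.069 without WT_CAF 3) and fell by 5.60 ± 1.21 (adjusted p = 0.0045). Gpc6, of the same family, fell by 3.55 ± 0.66 from KO_CAF to KO_tumor (adjusted p = 0.0019). Flrt3, a membrane protein that binds FGF receptors, stood at 43.9, 13.7, 11.02 and 11.8 FPKM in WT_tumor 1 to 4 and at 0.458 to 4.91 FPKM in WT_CAF. It rose by 3.43 ± 0.50 from WT_CAF to WT_tumor (adjusted p = 7.5e-04). The KO groups overlapped, with 4.81, 49.1 and 14.3 FPKM in KO_tumor 1 to 3 and 0.443, 5.53 and 8.24 FPKM in KO_CAF 1 to 3.

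Of 11 genes of heparan sulfate synthesis and modification, 3 fell and 0 rose from WT_CAF to WT_tumor (median -0.79), where 12.5% of all genes fell. From KO_CAF to KO_tumor 5 fell and 0 rose (median -0.87), where 15.4% of all genes fell. Sulf1 and Sulf2 encode the extracellular sulfatases that trim heparan sulfate. Sulf1 stood at 4.69, 73.1, 71.8, 64.6 and 110 FPKM in WT_CAF 1 to 5, at 89.0, 76.4 and 86.5 FPKM in KO_CAF 1 to 3 and at 0.735 to 6.39 FPKM in the tumor libraries. It fell by 4.17 ± 0.70 in the WT comparison (adjusted p = 0.0015) and fell by 4.54 ± 0.71 in the KO comparison (adjusted p = 7.8e-04). Sulf2 fell by 2.23 ± 0.69 from WT_CAF to WT_tumor (adjusted p = 0.034), a call lost without any 1 of WT_CAF 3, 4 and 5, WT_tumor 1 and 4 and KO_tumor 2 (0.052 to 0.18).

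Genes that FGF signalling induces through the MAP kinase pathway, and that damp it, were higher in tumor cells where they moved, with 1 exception. Of 13 such targets and feedback genes, 4 rose and 1 fell from WT_CAF to WT_tumor (median 0.44), where 9.05% of all genes rose. From KO_CAF to KO_tumor 5 rose and 0 fell (median 0.74), where 13% of all genes rose. The targets and feedback genes respond to MAP kinase activity from any source, K-Ras included. Dusp6, a phosphatase of ERK, stood at 54.3, 8.87, 8.28, 10.9 and 20.5 FPKM in WT_CAF 1 to 5, at 123, 60.8, 61.1 and 73.5 FPKM in WT_tumor 1 to 4 and at 65.0, 63.9 and 83.3 FPKM in KO_tumor 1 to 3. The library labelled WT_CAF 1 lay close to the tumor libraries. Dusp6 rose by 2.78 ± 0.49 (adjusted p = 0.0019) and by 2.69 ± 0.50 (adjusted p = 0.0019), and the nuclear phosphatase Dusp5 by 2.56 ± 0.34 (adjusted p = 5.2e-04) and 2.23 ± 0.35 (adjusted p = 7.2e-04). Dusp4 rose by 2.42 ± 0.79 in the KO comparison (adjusted p = 0.034), a call lost without either of KO_CAF 2 and 3 or any 1 of the KO_tumor libraries (0.064 to 0.18). The gene that fell in the WT comparison was Etv1, a transcription factor, by 2.08 ± 0.55 (adjusted p = 0.015), named here after its value was seen, a call lost without the index term (0.051), WT_CAF 3 (0.13) or WT_tumor 1 (0.062). Of the 10 receptor adaptors, 0 were called in the WT comparison and 2 in the KO comparison, against 21.5% and 28.4% of all genes. The 2 that fell were Frs2 by 1.15 ± 0.33 (adjusted p = 0.020) and Shc1 by 0.85 ± 0.29 (adjusted p = 0.041), both named after their values were seen. The Frs2 call was lost without KO_CAF 2, KO_CAF 3 or KO_tumor 2 (0.057 to 0.12), and the Shc1 call without any 1 of the KO_CAF or KO_tumor libraries (0.060 to 0.15).

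Esrp1 and Esrp2 encode the splicing factors that produce the epithelial forms of Fgfr2, and both rose in both comparisons. Esrp1 stood at 3.10, 16.5, 23.7 and 0.989 FPKM in WT_tumor 1 to 4, at 18.9, 10.9 and 26.9 FPKM in KO_tumor 1 to 3 and at 0 to 0.605 FPKM in the fibroblast libraries. Fibroblast and tumor libraries did not overlap, and the lowest tumor value was in WT_tumor 4, the library with the least Epcam. Esrp1 rose by 2.60 ± 0.67 from WT_CAF to WT_tumor (adjusted p = 0.014, and 0.12 without WT_CAF 3) and by 3.94 ± 0.68 from KO_CAF to KO_tumor (adjusted p = 0.0013). With a pseudocount of 0.1 these were 4.97 and 6.07.

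**Figure D4:**
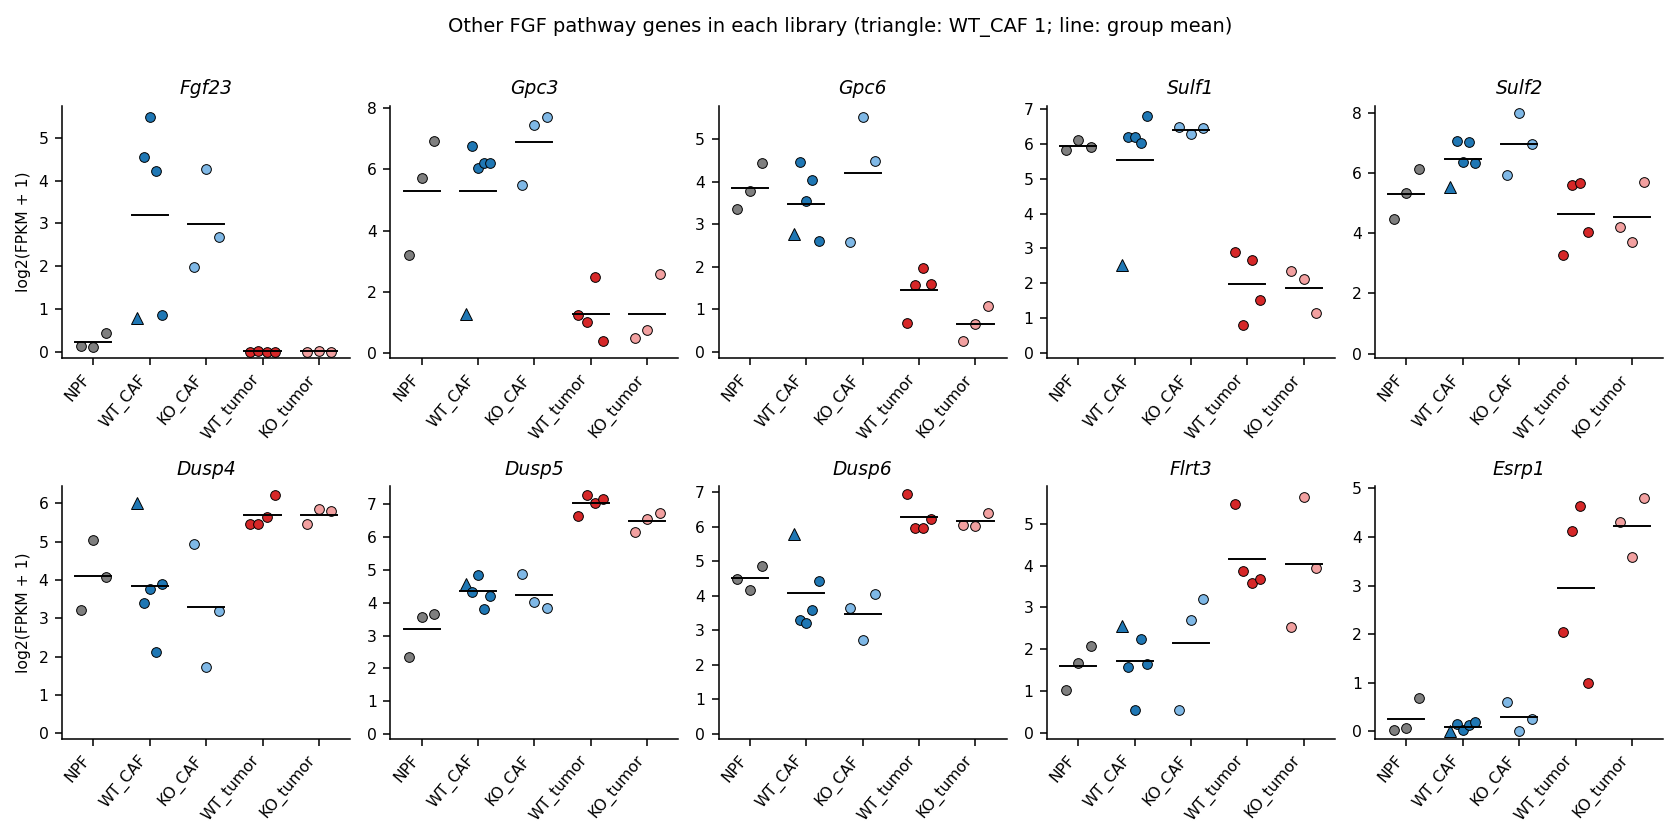
Levels of 10 other genes of the FGF system as log2(FPKM + 1) in every library of the 5 groups. Points are libraries, the triangle is the library labelled WT_CAF 1 and the line is the group mean. The 3 Dusp genes, Flrt3 and Esrp1 have higher group means in tumor cells, and Fgf23, Gpc3, Gpc6, Sulf1 and Sulf2 lower ones than in CAF.

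Between NPF and WT_CAF, 2 of the 54 other tested genes of the FGF lists were called, where 0.95% of all genes were called. Sdc1, a heparan sulfate proteoglycan, stood at 17.8, 17.4 and 11.03 FPKM in NPF 1 to 3 and at 58.5 to 315 FPKM in WT_CAF, and rose by 3.61 ± 0.53 (adjusted p = 0.0041). From WT_CAF 2 alone, without the library labelled WT_CAF 1, it rose by 2.92 ± 0.61. The call was lost with only the libraries without an index (adjusted p = 0.29) and with only the groups compared (0.18). Gpc4 stood at 73.3, 58.7 and 37.2 FPKM in NPF 1 to 3 and at 1.31 to 23.1 FPKM in WT_CAF, and fell by 3.35 ± 0.60 (adjusted p = 0.018). The Gpc4 value was -2.12 from WT_CAF 2 alone and -2.13 (adjusted p = 0.080) without the index term. Its adjusted p was 0.084 and 0.11 without NPF 1 and NPF 2. Between NPF and KO_CAF, 0 were called and 8 had an unadjusted p under 0.05, as had 1237 of all 13369 genes. The lowest p-values in each direction belonged to Sdc1 (3.63, adjusted p = 0.079), the ubiquitin ligase Cbl (1.54, adjusted p = 0.43), Gpc4 (-3.77, adjusted p = 0.14) and Hs6st2 (-2.67, adjusted p = 0.53). In the knockout comparisons limma called 0 of the 54. The genes with an unadjusted p under 0.05 were 2 in fibroblasts (Cbl and Flrt3), 0 in tumor cells and 1 for the difference between the effects (Flrt3), counted after the values were seen. Over all 13369 genes these numbers were 125, 528 and 185. Where the higher group averaged at least 5 FPKM, the values with the lowest p in fibroblasts were 0.95 for Cbl, 0.29 for Ptpn11, -0.43 for the decoy receptor gene Fgfrl1 and -0.62 for Sdc3. In tumor cells they were 1.33 for Esrp1, 0.58 for Etv5, -1.17 for Sdc2 and -1.33 for Hs6st2. For the difference between the knockout effects they were 0.94 for Etv5, 1.501 for Etv1, -1.54 for Flrt3 and -0.74 for Ext1, and all of these had an adjusted p of 1.

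Genes with the most similar profiles were sought for 4 members over the 18 libraries, by the root mean square difference between standardised log2(FPKM + 1) profiles, where 0 would be the same profile. For Fgf10 they were Adamts5 (0.269), which encodes an aggrecanase, Slc24a3 (0.292) and 2900041M22Rik (0.317). Adamts5 had means of 70.3 FPKM in NPF, 13.4 in WT_CAF and 17.4 in KO_CAF, against 0.535 and 0.315 in WT_tumor and KO_tumor. For Fgf7 they were Fam26e (0.196), Figf (0.239), which encodes the lymphangiogenic factor VEGF-D, and Klhl13 (0.255). Figf had means of 114 FPKM in NPF, 53.3 in WT_CAF and 85.1 in KO_CAF, against 0.829 and 0.565 in the tumor groups. For Fgfr1 they were Pde8a (0.353), Arsa (0.384) and Ttc28 (0.394), and for Fgfr2 they were 2610018G03Rik (0.459), Slc45a3 (0.477) and Gnptab (0.481). The choice moved with the libraries, in checks chosen after seeing the data: without the library labelled WT_CAF 1, 0 of the 3 genes for Fgfr1 remained among its closest 3, and without NPF 1, 1 of the 3 remained for each of Fgf7, Fgf10 and Fgfr1.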

How the data were processed

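Per the labels' protocols, poly(A) libraries of sorted cells were prepared by an Illumina TruSeq kit and read on a HiSeq2000. The values are FPKM as deposited by the authors, in 1 table of 23951 genes by 18 libraries. The submitters' processing notes name Cufflinks 2.2.1 with Cuffnorm, TopHat2 2.0.10, Bowtie 1.0.0, FastQC and SAMtools 0.1.19, and the builds mm9 (mouse), hg19 and GRCh37. Settings, annotation and the order of steps are not given in the sources used. Promoter sequences came from a GRCm38.p6 table matched by gene symbol, and no coordinates were converted.

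Read counts were not used, so the depth of each library is unknown and no counting interval can be given. Among values under 0.1 FPKM, ratios between libraries gathered weakly at preferred steps: in 153 pairs, a median of 2.98% of genes (2.12% to 15.4%) shared 1 bin of 0.05 on the log2 scale, so whole reads were not recovered. FPKM summed to 396646 to 919859 per library and 10657 to 11670 genes reached 1 FPKM. No libraries held identical values. Among 180 values of the 10 genes, 2 were listed at exactly 0.

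A gene was tested if at least 3 libraries reached 1 FPKM (13369 tested, 10582 removed). Differences of log2(FPKM + 1) were fitted with limma 3.58.1 (R 4.3.3, two-sided moderated test with a mean-variance trend) over all 18 libraries with the group and the form of the index as terms, leaving 11 residual degrees of freedom. The series' design text calls the libraries biological replicates. Fold changes on this scale understate the change of low genes. The fit was tested on simulated data for WT_CAF against NPF, with 100 genes changed at each of 2 sizes. It called 55% of those changed by 2 on the log2 scale and 88% of those changed by 4, with 3 false calls. The changed genes were drawn only from those with higher mean levels, which leaves out low genes such as Fgf9 and Fgf10. No effect of the index form was simulated. Changes of 2 could thus be missed in that comparison.

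The members and gene lists were chosen with earlier results of these data known. Named beside the members were, in each comparison, up to 4 called list genes with the largest difference in each direction (among genes whose higher group averaged at least 5 FPKM) or, where none was called, the 2 with the lowest p in each direction, and for 4 members the 3 genes with the closest profiles. Genes named outside this rule are marked. Alternatives were other pseudocounts (0.1, 0.5), no filter, a filter at 5 FPKM, upper quartile scaling, quantile normalisation, no index term, single index forms, only the groups compared and each library left out.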

Additional observations from a re-analysis of the deposited data

How the results depend on the processing

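Called members kept their direction under all alternatives that gave a value. The number of members called changed with the libraries used. For WT_CAF against NPF (1 called) it was 2 without the index term and WT_CAF 1, 0 with only the libraries without an index, 0 with only the groups compared and 0 to 2 when libraries were left out in turn. For KO_CAF against NPF (0) it was 1 without the index term, 1 without that term and WT_CAF 1, and 0 to 1 when libraries were left out. For WT_tumor against WT_CAF (8) it was 9 without the index term and WT_CAF 1, 3 with the 6-base index only, 0 with the 16-base index only, 5 with only the groups compared and 3 to 8 when libraries were left out, the lowest without WT_CAF 3, and 5 without WT_tumor 1. For KO_tumor against KO_CAF (8) it was 4 and 0 with the 6-base and 16-base index only and 5 to 8 when libraries were left out, the lowest without KO_CAF 2. The libraries with a 16-base index are 5 in all, so those fits have few samples. In the knockout comparisons it was 0 throughout. Signs turned for uncalled differences: Fgf1 in KO_tumor against WT_tumor (0.34), Sdc2 there (0.13) and Sdc3 in KO_CAF against WT_CAF (0.006), each with the 16-base index only, the Fgfr2 knockout interaction without the index term (-0.12), Fgfr2 and Fgfr4 in KO_CAF against NPF without that term (2.11 and 0.33, with or without WT_CAF 1), Fgfr2 there with quantile normalisation (0.017), Fgf2 in WT_CAF against NPF without that term and WT_CAF 1 (0.25), with a pseudocount of 0.1 Fgf9 there (-0.34) and Fgfr4 in KO_CAF against NPF (0.38), and, over the libraries left out in turn, in WT_CAF against NPF Fgf1 (-0.46 to 0.71), Fgf2 (-1.59 to 0.26), Fgf9 (-0.87 to 1.20), Fgfr1 (-0.055 to 0.61) and Fgfr2 (-0.87 to 1.87), in KO_CAF against NPF Fgfr2 (-1.47 to 1.27) and Fgfr4 (-0.45 to 0.13), Fgf9 in KO_CAF against WT_CAF (-0.036 to 1.54) and its interaction (-1.57 to 0.034). The causes were not tested. Among 26 other uncalled member differences, 83 of 729 alternative values had the other sign. Quantile normalisation moved the median of all genes to 0.15 in WT_tumor against WT_CAF and 0.12 in KO_tumor against KO_CAF, with all 8 calls kept in each. Over all genes, calls in WT_CAF against NPF were 37 higher and 90 lower, 24 and 104 with upper quartile scaling, 101 and 87 without WT_CAF 1, and 516 and 390 without the index term and WT_CAF 1. In total they numbered 127, 18, 2880 and 3798 in the comparisons of this order and ranged from 0 to 906, 4 to 639, 174 to 4032 and 81 to 4056 over the alternatives that leave out no library in turn. With each library left out the totals ranged from 20 to 1330 (without NPF 2 and WT_CAF 2), 2 to 394, 1201 to 3552 and 2193 to 4435. No paired analysis was possible because the labels carry no replicate numbers shared between groups. KO_CAF against NPF could not be fitted within an index form or from those groups alone. Depth is unknown, which limits statements on genes under 1 FPKM.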
